A study of Equus caballus with 4 samples.

Results

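Notch receptors, their ligands, the nuclear partner RBPJ and the classical target genes HES1 and HEY1 were followed in differentiating equine satellite cells, the resident stem cells of skeletal muscle. The set was defined by name as NOTCH1, NOTCH2, NOTCH3, DLL1, DLL4, JAG1, JAG2, HES1, HEY1 and RBPJ, and every gene probe annotated with exactly one of these symbols was taken. This gave 17 probes for 7 of the 10 genes, out of 43603 gene probes under 24998 gene names on the array. The probes were 5 for DLL1, 5 for DLL4, 2 for JAG1, 2 for RBPJ and 1 each for NOTCH2, HES1 and HEY1. NOTCH1, NOTCH3 and JAG2 were not found by symbol; 1 probe for each of them, and 1 more for JAG1, carried the gene's name in the probe description only, and these 4 probes are given beside the 17 but are not counted with them.

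The cells came from the semitendinosus muscle of young stallions, and the methods describe the choice of the best primary cell line. The arrays may therefore hold cultures of a single line, and the p-values measure the spread between these samples only. Treated cells received 0.125 µM gamma-oryzanol (GO), ferulic acid esters of plant sterols found in rice bran, for 24 h, with 3 mM hydrogen peroxide (H2O2) during the last 1 h, and were collected on day 3 of differentiation. Control cells were at the same day and received no GO; the methods give them the DMSO vehicle, and the study describes them as exposed to H2O2 while the sample labels do not say. RNA of treated cells (red, Cy5) and of control cells (green, Cy3) was hybridised together on 4 arrays, with no dye swap, so that dye and treatment cannot be told apart. The control is numbered as replicate 1 in the description of every array, while the series design lists 4 controls, so whether the green RNA came from separate cultures is not settled.

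Notch receptors are single-pass membrane proteins that are activated by ligands of the Delta and Jagged families on a neighbouring cell. Ligand binding leads to cleavage of the receptor by an ADAM protease and by gamma-secretase, and the freed intracellular domain joins RBPJ and Mastermind proteins on DNA to switch on repressor genes of the HES and HEY families. In skeletal muscle, Notch activity is known to keep satellite cells undifferentiated, and its decline goes with the start of myoblast fusion. The comparison asks whether the RNA of these genes differed between cells with GO and control cells under the conditions above.

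The probes are 60 bases long, and their positions are those the array files give for the horse build EquCab1, with no exon, intron or UTR assigned to them. The NOTCH1 probe is shown first, since it lay just outside the threshold; its capitals mark a closing TAA, the letters of a stop codon, with no reading frame assigned. The NOTCH1 probe is at chr25:1180714-1180773, listed from the higher to the lower position.
NOTCH1: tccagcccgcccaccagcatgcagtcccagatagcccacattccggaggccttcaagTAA

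The Delta ligands are shown because each is measured by 5 probes that slide along 1 stretch by 1 base at a time, so that the 5 are near copies and not 5 independent readings. The capitals mark the 56 bases that all 5 probes of the gene hold. The DLL1 probes lie at chr31:504075-504138 from the first base of probe 1 to the last of probe 5, and the DLL4 probes at chr1:144957891-144957954. The longest run that a DLL1 and a DLL4 probe have in common is 13 bases, atatcagaggaga.
DLL1 probe 1: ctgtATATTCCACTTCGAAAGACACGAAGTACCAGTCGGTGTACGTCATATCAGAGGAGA
DLL1 probe 5: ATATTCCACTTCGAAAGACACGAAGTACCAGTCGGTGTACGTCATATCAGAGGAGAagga
DLL4 probe 3: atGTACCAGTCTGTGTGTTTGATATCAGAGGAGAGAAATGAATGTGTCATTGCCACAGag
DLL4 probe 4: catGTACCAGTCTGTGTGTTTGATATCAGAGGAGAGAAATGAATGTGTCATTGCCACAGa

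The target genes each have 1 probe, and that of HES1 is shown because its values rest on this stretch alone. It is listed over chr19:27046771-27047079, a span of 309 bases and thus longer than its own 60.
HES1: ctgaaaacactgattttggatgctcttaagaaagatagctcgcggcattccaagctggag

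Of the 17 probes, 11 (from DLL1, JAG1, HES1, HEY1 and RBPJ) were well above background on all 4 arrays in at least one channel and were tested. The remaining 6, the NOTCH2 probe and the 5 DLL4 probes, did not pass this filter. Values are log2 ratios of red over green after background correction and loess normalisation within the array, so a positive value means more signal in cells with GO and H2O2. None of the 11 tested probes passed the threshold of 0.05 on the adjusted p in limma, with 0 higher and 0 lower, and 2 had an unadjusted p below 0.05. Over all 24230 probes tested, 17.1% passed in either direction, 9.49% higher and 7.59% lower. With the fold change limit of 1.3 stated in the study's methods the count was again 0, against 1.42% of all probes. The gene list in the study's own results was given at a lower fold change limit.

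The differences measured were small with the processing used here. The mean log2 ratio was above 0 for 10 of the 11 probes and below 0 for 1, with a median of 0.09 beside 0.00 over all probes, and since 5 of the 11 are the overlapping DLL1 probes this median leans on 1 gene. The median was 0.12 on array 1, -0.03 on array 2, 0.19 on array 3 and 0.04 on array 4, so array 2 stood on the other side of 0. For all 11 probes the 95% confidence interval of limma, not adjusted for the number of probes, lay inside a fold change of 1.3 in either direction (0.38 on the log2 scale). That number ran from 7 to 11 over the alternatives, with the lowest from Agilent's processed signals. With those signals JAG1 probe 1 was at 0.34 in place of 0.11, and DLL1 probe 3 at 0.22 in place of 0.10. HEY1 was at 0.02 in place of 0.06, and RBPJ probe 2 at -0.17 in place of -0.19. In limma 5 of the 11 then had an unadjusted p below 0.05, and 0 passed the threshold. The JAG1 probe named by description is not among the 11. Its interval ran from -0.59 to 0.40, beyond the same fold change on both sides. Only 2 of the 11 probes, DLL1 probe 4 and RBPJ probe 2, had the same sign on all 4 arrays, as 43.8% of all tested probes did.

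**Figure D1:**
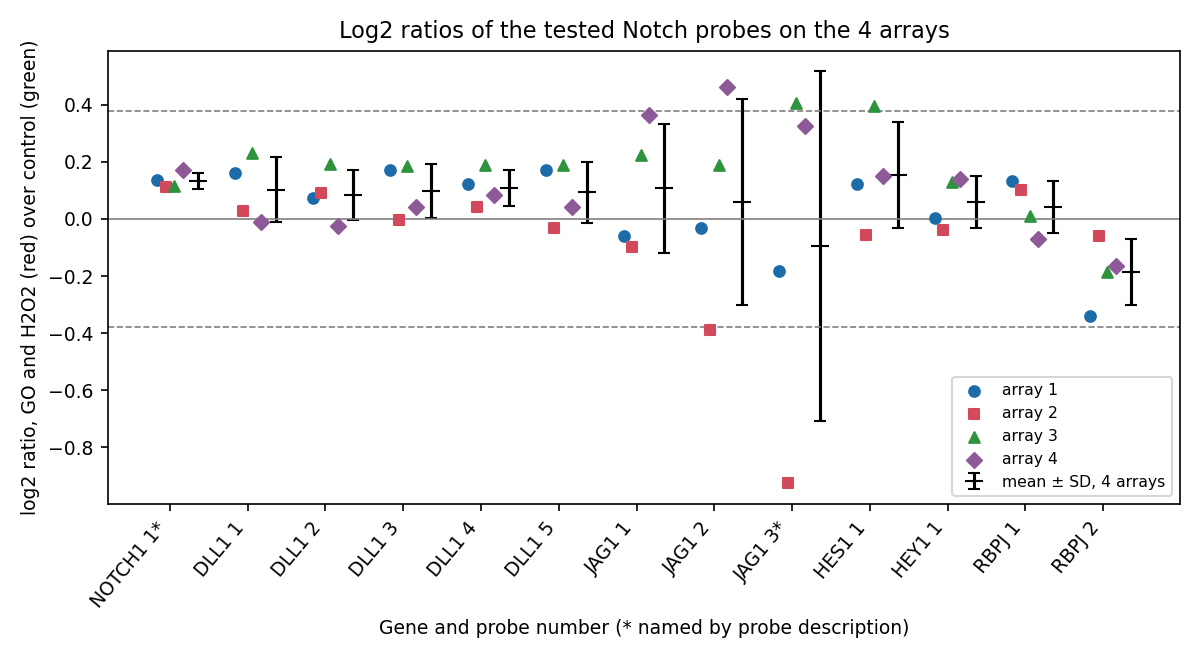
Log2 ratio of GO and H2O2 over control (vertical axis) for each tested Notch probe, with 1 point per array and the mean ± SD of the 4 arrays in black; dashed lines mark a fold change of 1.3 and asterisks probes named by their description. NOTCH1 clustered between 0.11 and 0.17, JAG1 lay below 0 on arrays 1 and 2 and above 0 on arrays 3 and 4, and RBPJ probe 2 was below 0 on every array.

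Among the receptors, NOTCH1 gave a mean intensity of 250.2, 274, 229 and 263 in the green channel of arrays 1 to 4. Its red intensities were 284, 313, 256 and 277. The normalised log2 ratios were 0.14, 0.11, 0.11 and 0.17, with a mean of 0.13 ± 0.03 (SD, n = 4). All 4 arrays lay above 0 and close together, and only 3.07% of all tested probes had a smaller SD. In limma the unadjusted p was 0.01 and the adjusted p 0.054, with an interval of 0.04 to 0.22, so the NOTCH1 probe missed the threshold by little. It passed with array weights (adjusted p = 0.0452), and its adjusted p ranged up to 0.831 over the other alternatives.

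NOTCH2 and NOTCH3, the other receptors of the set, could not be tested. The NOTCH2 probe read 71.7, 72.9, 74.8 and 85.0 in green and 60.1, 65.1, 56.9 and 61.9 in red, over local backgrounds of 45.0 to 56.0, and was not well above background on any array in either channel. Its log2 ratios of 0.05, 0.34, 0.10 and 0.14 therefore describe values near the background. The NOTCH3 probe, on an unplaced sequence, was well above background on 3 arrays in green and 2 in red, with log2 ratios of -0.01, -0.11, -0.06 and -0.02 and a mean of -0.05 ± 0.05 (SD, n = 4).

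Of the ligands, DLL1 was measured in both channels on every array. The ratio averaged over its 5 probes was 0.14 on array 1, 0.02 on array 2, 0.20 on array 3 and 0.03 on array 4, with a mean of 0.10 and an SD of 0.09 between arrays. In this average arrays 1 and 3 stood apart from arrays 2 and 4, while single probes overlapped. The lowest probe on array 1 was at 0.07, and the highest on arrays 2 and 4 at 0.09 and 0.08. The SD between the 5 probes of an array, 0.02 to 0.05, was smaller than that between arrays. Probe 4 had green intensities of 256, 224, 187 and 241 and red intensities of 295, 239.6, 226 and 240.2. Its log2 ratios were 0.12, 0.04, 0.19 and 0.08, with a mean of 0.11 ± 0.06 (SD, n = 4), an unadjusted p of 0.0367 and an adjusted p of 0.113 in limma. The means of the other 4 probes were 0.08 to 0.10, with adjusted p-values of 0.187 to 0.244, and each was above 0 on 3 of 4 arrays.

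DLL4, a ligand best known from sprouting endothelium, was not well above background on any array in the green channel at any of its 5 probes. In red, only probe 3 on array 1 was. There its intensity was 516, against 48.6 on array 2, 52.3 on array 3 and 51.7 on array 4, and the log2 ratio was 2.54, against 0.00, 0.07 and -0.14. The 4 other DLL4 probes, which differ from probe 3 by a shift of 1 or 2 bases, read between 50.3 and 54.5 in red on the same array. The local red background at that spot was 163 on array 1 and 43.0 to 45.0 on the other arrays. Around it, the 48 nearest spots had a median red background of 106 on array 1, with a maximum of 7446, and of 43.3, 43.5 and 44.0 on arrays 2, 3 and 4. Only 0.144% of the gene spots of array 1 had a red background as high, and the spot carried no outlier mark. The mean of probe 3 was 0.62 ± 1.28 (SD, n = 4) with array 1 and -0.02 ± 0.10 (n = 3) without it, and the means of the other 4 probes lay between -0.06 and 0.10.

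**Figure D2:**
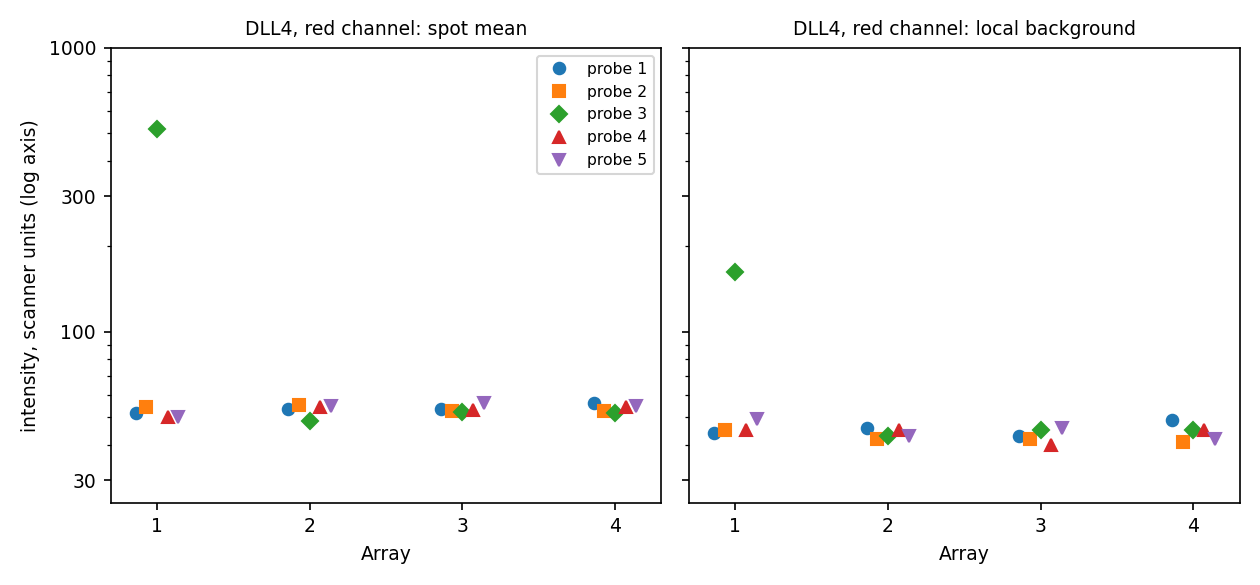
Red-channel mean intensity (left) and local background (right) of the 5 DLL4 probes on each array, in scanner units on a log axis. All points lie between 40.0 and 56.2 except probe 3 on array 1, at 516 over a background of 163.

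Most endothelial markers, like DLL4, gave little signal. PECAM1, VWF, CDH5, KDR and TIE1, 5 of the 7 endothelial marker genes found on the array, were not well above background on any array in either channel, and ERG alone was tested.

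JAG1, the Jagged ligand that was measured on every array, varied widely between arrays. Its brightest probe, probe 3 at chr22:13192590-13192649, is named by description; it read 852, 703, 538 and 496 in green and 839.7, 435, 842 and 648 in red. The log2 ratios were -0.18, -0.92, 0.41 and 0.32, with a mean of -0.09 ± 0.61 (SD, n = 4) and an adjusted p of 0.77. Arrays 1 and 2 lay below 0 and arrays 3 and 4 above it, and 99.5% of all tested probes had a smaller SD. The channel ranges overlapped, as they did at all 21 probes for the Notch genes. The normalised log2 red signal moved most, from 8.63 on array 2 to 9.88 on array 3, while the green signal ran from 9.06 to 9.56.

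The JAG1 probes found by symbol split the arrays the same way. Probe 1 (chr22:13191011-13191070) gave -0.06, -0.10, 0.22 and 0.36, with a mean of 0.11 ± 0.22 (SD, n = 4) and an adjusted p of 0.388. Probe 2 (chr22:13191051-13191110) gave -0.03, -0.39, 0.19 and 0.46, with a mean of 0.06 ± 0.36 (SD, n = 4) and an adjusted p of 0.766. Probes 1 and 2 share 20 bases, atttaagttttgacaagctg, while probe 3 does not overlap them on the build. The means of the 3 probes differed in sign while their arrays did not, and leaving out 1 array turned the mean of probe 2 (to -0.08 without array 4) and of probe 3 (to 0.18 without array 2). JAG2, the second Jagged ligand, was not well above background in green on any array and was so in red on 2, with log2 ratios of 0.11, 0.29, 0.19 and 0.07.

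**Figure D3:**
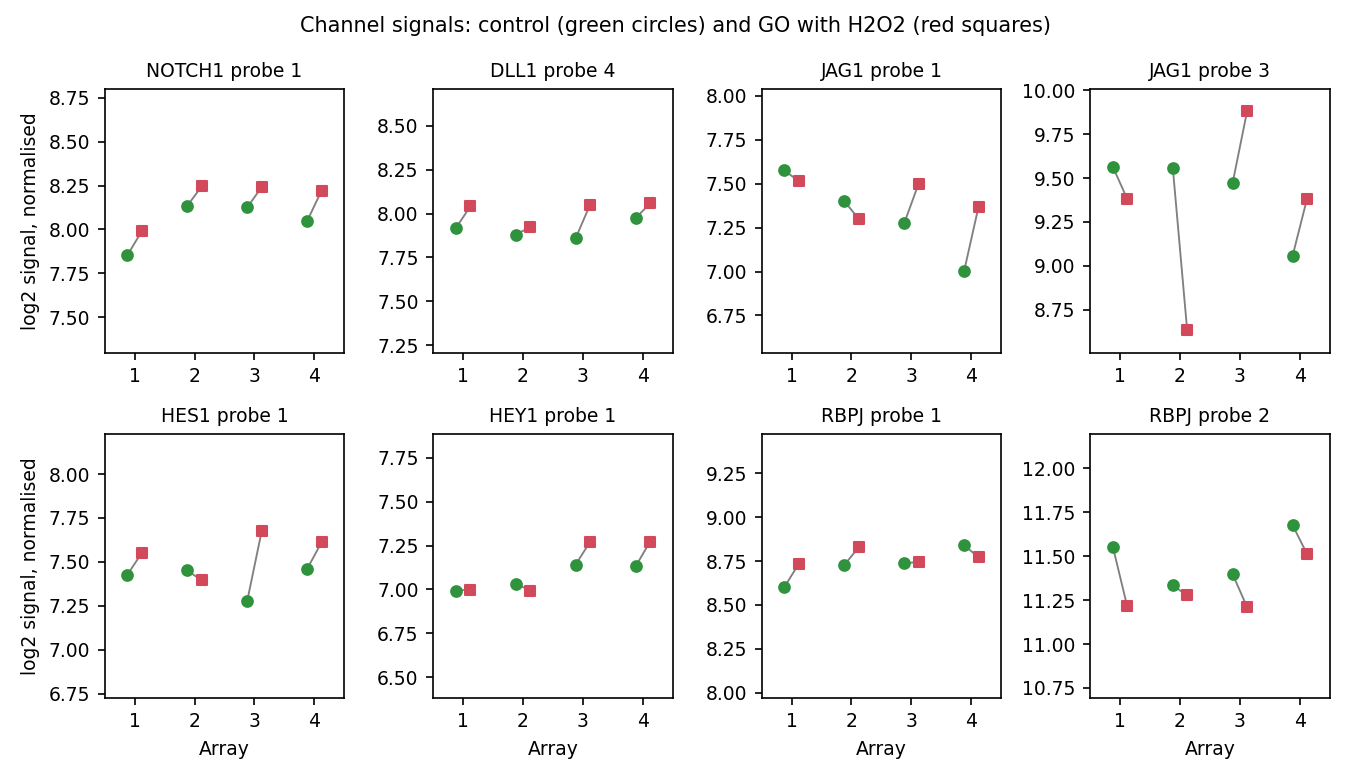
Normalised log2 signals (vertical axis) of control RNA (green circles) and of GO and H2O2 RNA (red squares) on each array for 8 Notch probes, with lines joining the channels of 1 array and every panel spanning the same height. NOTCH1 was higher in red on every array, JAG1 probe 3 ran down on array 2 and up on arrays 3 and 4, and RBPJ probe 2 ran down on every array.

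The classical targets of the pathway were close to 0 or above it. HES1, a repressor that holds back myogenic differentiation, read 174, 166, 135 and 172 in green and 194, 154, 174 and 172 in red. Its log2 ratios were 0.12, -0.06, 0.40 and 0.15, with a mean of 0.15 ± 0.19 (SD, n = 4), the highest mean of the 11 tested probes. It was higher on 3 of 4 arrays, and array 2, the exception, was also the lowest for JAG1 and HEY1. The adjusted p was 0.172 and the interval ran from -0.02 to 0.33, so that the difference was not distinguishable from the spread between arrays. HEY1, a related repressor, read 124.8, 125.1, 125.2 and 140.6 in green and 116.8, 108.1, 125.2 and 129.8 in red. Its log2 ratios were 0.00, -0.04, 0.13 and 0.14, with a mean of 0.06 ± 0.09 (SD, n = 4) and an adjusted p of 0.399.

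RBPJ, the DNA-binding protein through which all Notch receptors act, gave probes on either side of 0. Probe 2 (chr3:92097257-92097316) read 3405, 2390.0, 1961 and 2894 in green and 3186, 2936, 2102 and 2930.0 in red. Its normalised log2 ratios were -0.34, -0.06, -0.19 and -0.16, with a mean of -0.19 ± 0.12 (SD, n = 4), an unadjusted p of 0.0107 and an adjusted p of 0.0559. The ratio was lower on 4 of 4 arrays, although the raw red signal exceeded green on arrays 2, 3 and 4; the median raw log2 ratio of 2154 tested probes of like brightness was 0.22, 0.36, 0.26 and 0.17 on the 4 arrays, above the -0.10, 0.30, 0.10 and 0.02 of the probe itself. Probe 1 (chr3:92097182-92097241), which lies 15 bases away, gave 0.13, 0.10, 0.01 and -0.07, with a mean of 0.04 ± 0.09 (SD, n = 4) and an adjusted p of 0.542. Probe 1 exceeded probe 2 on all 4 arrays, by 0.47, 0.16, 0.20 and 0.09 and by 0.23 ± 0.17 (SD, n = 4) on average; with 4 arrays an exact two-sided sign test cannot go below 0.125. RBPJ probe 2 passed the threshold with trend and robust estimation (adjusted p = 0.0493), with array weights (0.0402) and without array 2 (0.0397).

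The patterns nearest to those of these genes, by the root mean square difference over the 4 arrays among 8144 other named genes at their brightest tested probe, were those of NRD1 for NOTCH1 (difference of 0.01) and of USP1 for RBPJ probe 2 (0.02). NRD1 gave 0.13, 0.11, 0.10 and 0.16, and USP1 gave -0.34, -0.05, -0.22 and -0.20.

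The wider pathway was described by 51 further genes, of which 46 were found on the array and 33 were tested at their brightest tested probe. Of these, 4 were higher, 1 was lower and 28 did not pass; with the mean over a gene's tested probes in place of the brightest, 2 were higher (HES7 and PSEN2) and 2 lower (TLE1 and SNW1, the latter named after its values were seen). The median at the brightest probe was 0.03 on the log2 scale, beside -0.01 over all genes. Over all named genes tested in this way, 17.3% passed in either direction, 8.49% higher and 8.79% lower, so that the 5 of 33 stand near the share found among all genes.

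Among the genes of receptor cleavage, 2 of 7 were higher and 0 lower. APH1B, a subunit of gamma-secretase, gave 0.32, 0.11, 0.25 and 0.40 (mean 0.27 ± 0.12 SD, n = 4, adjusted p = 0.0268), with its other tested probe at -0.01 and the mean over both at 0.13 (adjusted p = 0.082). With Agilent's processed signals, whose ratios are those the authors deposited, the same APH1B probe was at 0.61, more than 1.5 times its value here. PSEN2, a catalytic subunit of the same enzyme, gave 0.36, 0.17, 0.19 and 0.20 (mean 0.23 ± 0.09 SD, n = 4, adjusted p = 0.0278), and with Agilent's processed signals it was at 0.21 and missed the threshold (adjusted p = 0.0591).

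Receptor maturation held 1 call among 4 genes tested. POGLUT1, which adds glucose to the EGF repeats of Notch, gave 0.26, 0.23, 0.35 and 0.20 (mean 0.26 ± 0.06 SD, n = 4, adjusted p = 0.0189), but its other tested probe also passed the threshold in the opposite direction, at -0.23, so no direction can be given for the gene. Among 2 further targets tested, HES7, a HES repressor known from the segmentation clock, gave 0.36, 0.22, 0.28 and 0.26 (mean 0.28 ± 0.06 SD, n = 4, adjusted p = 0.0166), and HEY2 had a mean of 0.04. Whether HES7 differed from HES1 or HEY1 was not tested.

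Of 7 corepressors tested, 1 was lower and 0 were higher. TLE1, a Groucho corepressor that HES proteins recruit, gave -0.24, -0.51, -0.21 and -0.16 (mean -0.28 ± 0.16 SD, n = 4, adjusted p = 0.0346), and all 5 of its tested probes, which overlap with shifts of a few bases, were lower and passed. With Agilent's processed signals TLE1 was at -0.32 and missed the threshold (adjusted p = 0.0547). SPEN, another corepressor, named after its values were seen, did not pass at its brightest probe (mean -0.09). All 4 of its tested probes were below 0, and 1 of them passed. None of 6 coactivators and none of 6 trafficking and ubiquitin ligase genes passed in limma, with 2 and 0 at an unadjusted p below 0.05. NOTCH4, DLL3, DLK1, HES2, HEYL, NUMB, DTX1, MAML3 and TLE4 were not well above background on any array.

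**Figure D4:**
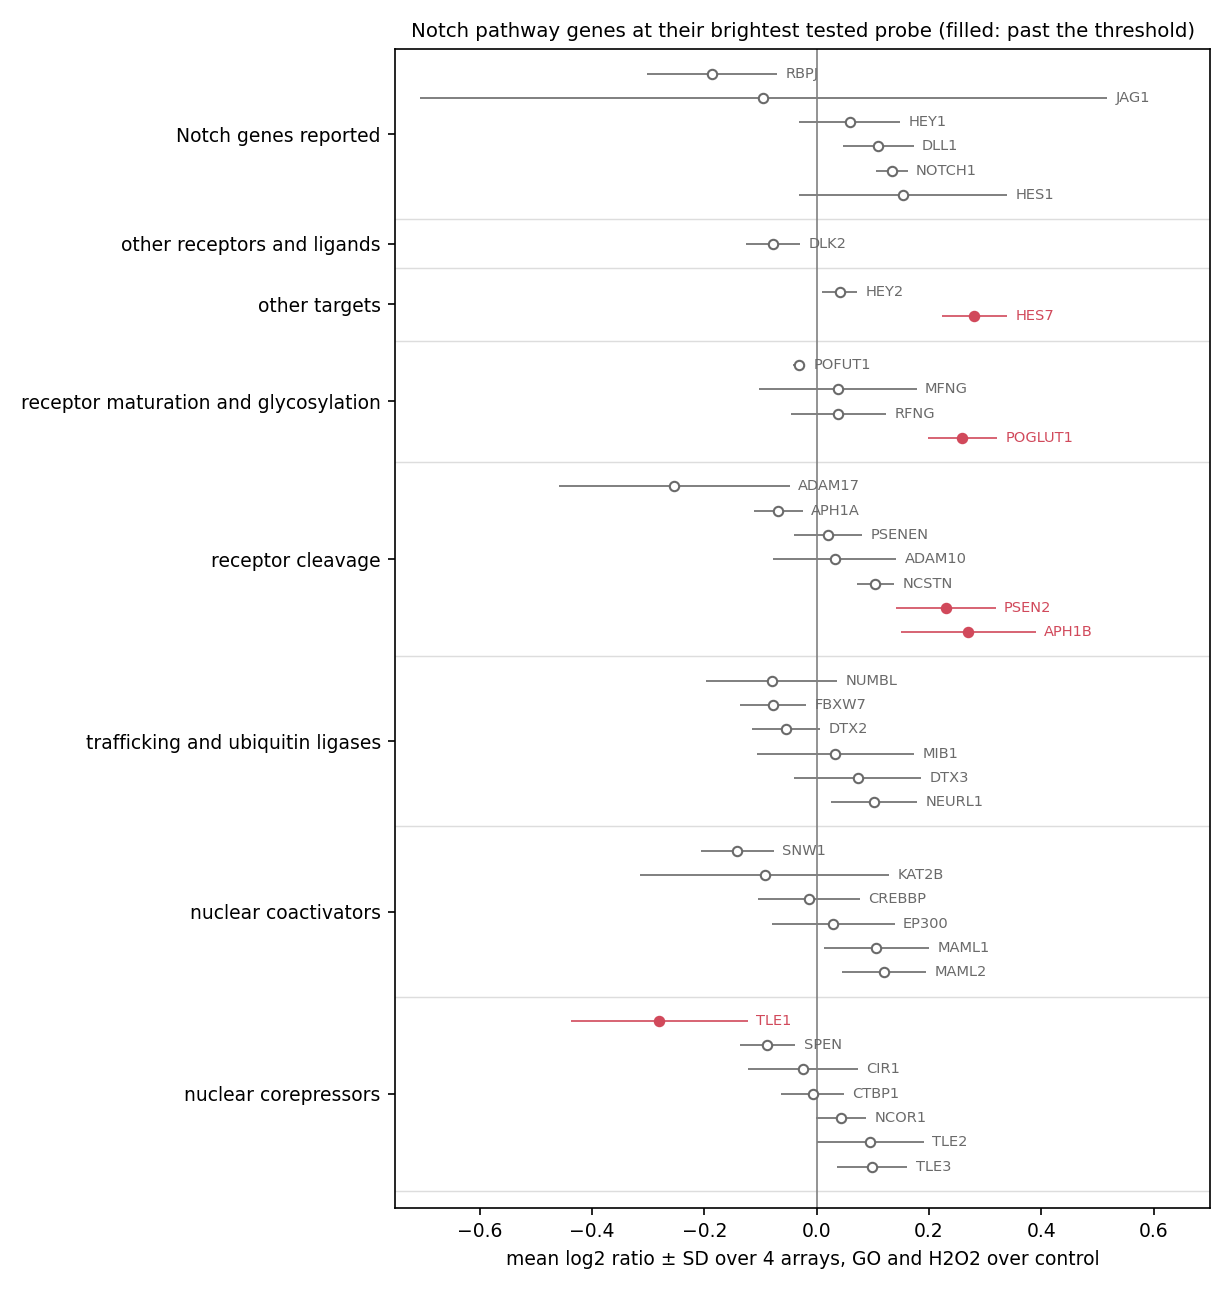
Mean log2 ratio ± SD over the 4 arrays (horizontal axis) of each Notch pathway gene at its brightest tested probe, grouped by role; filled red points passed the adjusted threshold in limma. At these probes the 4 higher calls lie between 0.23 and 0.28, among them POGLUT1, whose other probe passed at -0.23, and TLE1 is lower at -0.28; no receptor, ligand or classical target of the set is filled.

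The count of calls in the wider pathway was 5 without array 2 but 0 without array 1, 3 or 4, fits that called 2, 38 and 0 of all 24230 probes. The ratios moved little: with an array left out, HES7 ranged from 0.25 to 0.30, POGLUT1 from 0.23 to 0.28, APH1B from 0.23 to 0.32, PSEN2 from 0.19 to 0.25 and TLE1 from -0.32 to -0.20. The cells carried the markers of differentiating muscle. PAX7, the marker of undifferentiated satellite cells, was not well above background on any array, but it was read by 1 probe only. The other 11 of 12 myogenic marker genes were well above background on all 4 arrays in both channels. Of these 11, 6 were higher (TNNT3, MYOG, MEF2C, MYH8, CKM and MYH3) and 0 lower, beside 8.49% and 8.79% of all named genes, with a median log2 ratio of 0.23. This count, like that of the pathway, was 0 without array 1, 3 or 4 (an alternative added after the data were seen), with medians of 0.18, 0.20 and 0.26. Over the other alternatives it ranged from 0, with median centring and in the methods' t-test, to 8 with array weights. It was 4 with Agilent's processed signals. The medians over these alternatives were 0.20 to 0.31. The part of the myogenic difference in the Notch values was not tested. In RNA from whole cultures, fewer cells of a type and less RNA per cell cannot be told apart.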

How the data were processed

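Per the file headers, the authors extracted the spot intensities of both channels with Agilent Feature Extraction (version 10.10.1.1); the deposited log10 ratios, also held by the series matrix with a largest difference of 0, were those of processed red over green. Background medians were used to correct mean intensities by normexp (offset 50), followed by loess in each array, with control spots at weight 0. Control spots and outlier-marked spots (7 to 16 gene spots per array) were dropped, and spots of a probe averaged. Probes well above background on all 4 arrays in one channel were kept (55.6%). Log2 ratios were tested against 0 (two-sided) with limma 3.58.1 in R 4.3.3, and p-values were adjusted by Benjamini-Hochberg over all tested probes. Channel signals were also scaled between arrays by Aquantile.

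Between 54.9% and 61.4% of gene spots were well above background per array and channel, and 0 were saturated; the number of arrays limits the precision. The arrays appear to share 1 slide. The sample labels name no batch of culture, RNA extraction or labelling, so none could be separated. Every probe of the set is reported. Pathway genes past the threshold with 1 sign on all arrays are named; some pathway genes and probe sequences are not reported here. The genes and lists were chosen with earlier results of these data known. Leukocyte, fibroblast and pericyte markers were also counted. The test was checked on simulated ratios with changes larger than the mean ratios of the tested Notch and pathway genes. That check does not show how often differences of the size reported here would be found. Alternatives covered background correction, normalisation, filters, variance models, the methods' t-test and each left-out array.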

Additional observations from a re-analysis of the deposited data

Results flagged for a closer look

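Values of 26 probes, 21 for the Notch genes and 5 for named pathway genes, were screened for a single array far from the other 3, by the gap to the nearest array as a share of the range. Chance puts about 1 in 20 such sets over the 95% limit, and 2 of the 26 were over it. DLL4 probe 3 had a log2 ratio of 2.54 on array 1, with the other arrays between -0.14 and 0.07. PSEN2 had a log2 ratio of 0.36 on array 1, with the other arrays between 0.17 and 0.20.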

How the results depend on the processing

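Dye and treatment are confounded on all 4 arrays, and probes near the background, such as those of NOTCH2 and DLL4, carry no usable ratio. The count of Notch probes past the threshold, 0 of 11, became 1 (RBPJ probe 2, lower) with trend and robust estimation and with array weights, and ranged from 0 to 1 when each array was left out. With the fold change limit it was 0 under every alternative run. The pathway count of 5 fell to 0 with median centring, in the methods' t-test and in the fit that drops the pairing of channels within an array (no block), and ranged from 0 to 5 when each array was left out, while HES7, for one, stayed at 0.28 in the first 3 fits. The calls were 4 with the mean over a gene's probes, and with Agilent's processed signals 5, of which 3 were among those 5 genes. The count over all probes, 4137, was 12 with median centring, 594 without the block and 5 with the methods' t-test, and ranged from 0 (without array 4, where 6694 had an unadjusted p below 0.05) to 3899 with an array left out. With an array left out, JAG1 probe 2 ranged from -0.076 (without array 4) to 0.21 and JAG1 probe 3 from -0.26 to 0.18 (without array 2), each changing sign once. No other tested Notch probe changed sign under any alternative, nor did HES7, POGLUT1, APH1B, PSEN2 or TLE1 at the brightest probe. The ratios of single marker genes were not followed over the alternatives. The probes that were not tested had no such fits; DLL4 probe 3 went from 0.62 to -0.02 without array 1.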

Other observations

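Other cell types gave mixed values. PTPRC, the pan-leukocyte antigen CD45, gave 0.54, 0.56, 0.56 and 0.45 and passed the threshold (adjusted p = 0.00632 in limma). Of its 7 tested probes 6 passed, and these 6 overlap each other, with the remaining one at -0.06. CSF1R, LCP1 and AIF1, markers of macrophages and other leukocytes, were not well above background on any array. CD14 was lower, with a mean of -0.17. CD68, the remaining leukocyte marker, met the signal filter in each channel of the 4 arrays. Its mean was 0.005, and it did not pass the threshold (adjusted p = 0.942 in limma). Among fibroblast markers, LUM, a matrix proteoglycan, was lower with a mean of -0.43 and THY1 higher with a mean of 0.28, and the 4 others tested did not pass. The 2 pericyte and smooth muscle markers tested, CSPG4 and PDGFRB, had means of 0.06 and 0.04.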
